A study of Mus musculus with 6 samples.

Results

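The nuclear genes for the subunits of respiratory complexes II, III and IV, of cytochrome c and of ATP synthase (complex V) were followed in brown adipose tissue after injection of ginsenoside Rb2. They were taken by name from the 45777 genes of the count table, as protein-coding genes with the symbols Sdha to Sdhd (complex II, 4 genes), Cyc1 or a symbol starting with Uqcr (complex III, 9 genes), Cycs (cytochrome c), a symbol starting with Cox4 to Cox8 (complex IV, 18 genes) or with Atp5 (complex V, 17 genes). The rule used only names and gene type, but it was set with earlier results of these data known. This gave 49 members, of which 47 had enough reads to be tested. The isoforms Cox7b2 and Cox8c had a count of 0 in all 6 libraries and were not tested.

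Complex II oxidises succinate and passes its electrons to ubiquinone, complex III moves them on to cytochrome c, and complex IV (cytochrome c oxidase) hands them to oxygen. ATP synthase uses the resulting proton gradient to make ATP, whereas in brown fat the uncoupling protein UCP1 lets protons flow back so that the energy is released as heat. Complexes III, IV and V each join large catalytic or core proteins with a ring of very small accessory subunits, and complex IV has tissue-specific isoforms of some of these.

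The mice were male wild type C57Bl6/J animals that received Rb2, a saponin of ginseng root, or phosphate-buffered saline (PBS) by intraperitoneal injection over 2 weeks. Each group has 3 libraries, which the labels tie to 3 mice per condition, and p-values measure the spread between these libraries. Dose and age are not given in the labels, and nothing there says that animals were pooled. Libraries are named by the number in their column heading, 1, 3 and 4 for Rb2 and 1, 2 and 4 for PBS.

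Total counts per library ran from 83642183 to 92666780. Expression is given as CPM (read counts brought to the same library size, with TMM factors). The brown adipocyte markers ran from Fabp4, at 5827 to 8146 CPM over the libraries, down to Prdm16, at 10.3 to 30.6 CPM. Ucp1 lay at 2928, 4687 and 3406 CPM in Rb2 libraries, against 3790, 3388 and 4770 CPM in PBS libraries. Of the 12 brown adipocyte markers 2 fell, Prdm16 and Elovl3 (16.7%, beside 5.11% of all tested genes). The 16 skeletal muscle markers summed to 50.6, 516 and 336 CPM in Rb2 libraries, against 2576, 7751 and 68.0 CPM in PBS libraries, and none of them passed the edgeR test described below (0 at an unadjusted p under 0.05, and 1 by DESeq2). Summed markers ran from 757 to 1138 CPM in Rb2 and from 1302 to 1477 CPM in PBS for endothelium (2 of 8 fell), from 737 to 815 CPM and from 932 to 947 CPM for mural cells (3 of 10 fell), from 479 to 793 CPM and from 1036 to 1451 CPM for red cells (4 of 5 fell), from 48.4 to 69.8 CPM and from 65.6 to 85.9 CPM for macrophages (1 of 6 fell), and from 0 to 0.681 CPM and from 0.235 to 27.6 CPM for cardiac muscle. The share of markers that fell was 25% for endothelium, 30% for mural cells, 80% for red cells and 16.7% for macrophages, beside 5.11% of all tested genes. The part of these marker differences in the results below was not tested except where a value is given. In RNA of whole tissue fewer cells of a type and less RNA per cell cannot be told apart.

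The subunits took 2.75, 3.24 and 3.56% of all counts in Rb2 libraries, against 2.89, 3.54 and 3.78% in PBS libraries, so the groups overlapped. Of the 47 tested members 3 passed the edgeR quasi-likelihood test at an adjusted p under 0.05 (6.38%), a smaller share than the 10.4% of all 16707 tested genes. Uqcrc2, a core protein of complex III, rose, which is 2.13% of the members beside 5.33% of all genes. Cox4i2, an isoform of complex IV, and Atp5k, a small membrane subunit of complex V, fell, which is 4.26% of the members beside 5.11% of all genes. At an adjusted p under 0.1 there were 9 members (19.1%, beside 20.3% of all genes), and at an unadjusted p under 0.05 there were 14 (29.8%, beside 30.0%). DESeq2 called 13 members (27.7%) and limma 3, beside 19.8 and 9.74% of all genes. The groups did not overlap for 6 members that were higher in all Rb2 libraries (12.8%, beside 18.2% of all genes) and for 13 that were lower in all of them (27.7%, beside 17.6%), together 40.4% beside 35.8%. The count of calls depends on single libraries: it was 0 without Rb2 1, Rb2 3, PBS 1 or PBS 2, 2 without PBS 4 and 9 without Rb2 4, beside 1.77 to 13.3% of all genes.

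**Figure D1:**
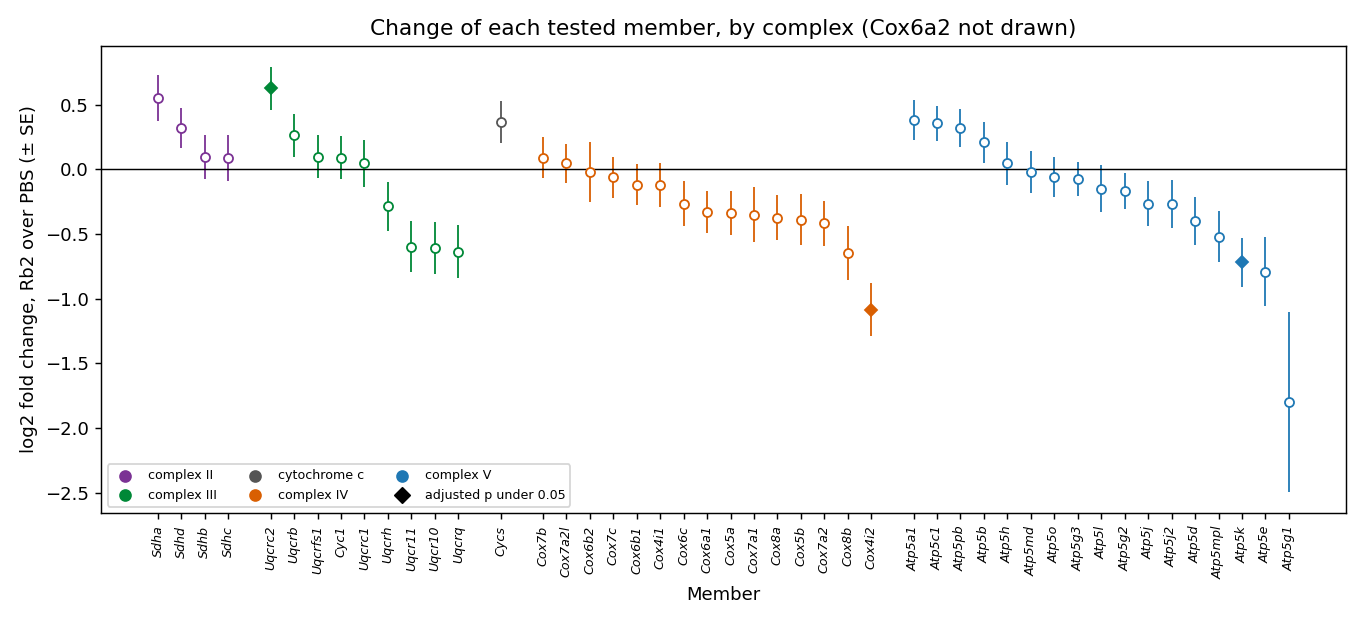
Log2 fold change of each tested member, Rb2 over PBS, with its standard error (vertical bars), ordered by complex and by size of the change; filled diamonds mark an adjusted p under 0.05. Complex II lies at or above 0, complexes III and V spread to both sides, and 14 of 16 tested complex IV genes lie below 0; Cox6a2 (-3.90) is off the scale and is not drawn.

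Levels between genes were compared per kilobase of the longest annotated transcript. On that scale Atp5b, the catalytic beta subunit of ATP synthase, had the highest level in Rb2 libraries, at a mean of 2465 CPM per kb, against 2132 CPM per kb in PBS libraries. Cox6a1 followed at 1977 CPM per kb in Rb2 and led the PBS libraries at 2482 CPM per kb. The median level per kb over the subunits of complex IV was 812 CPM per kb in Rb2 and 948 CPM per kb in PBS, and over those of complex V 565 and 680 CPM per kb. The 4 lowest tested members in Rb2 libraries were Atp5g1, Cox6a2, Cox4i2 and Cox6b2, at 1.01, 1.11, 3.41 and 5.06 CPM per kb, against 3.50, 16.6, 7.25 and 5.13 CPM per kb in PBS libraries. The longest transcript of Atp5g1 has 4715 bases and the shortest 596, so its level per kb depends on the transcript used.

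**Figure D2:**
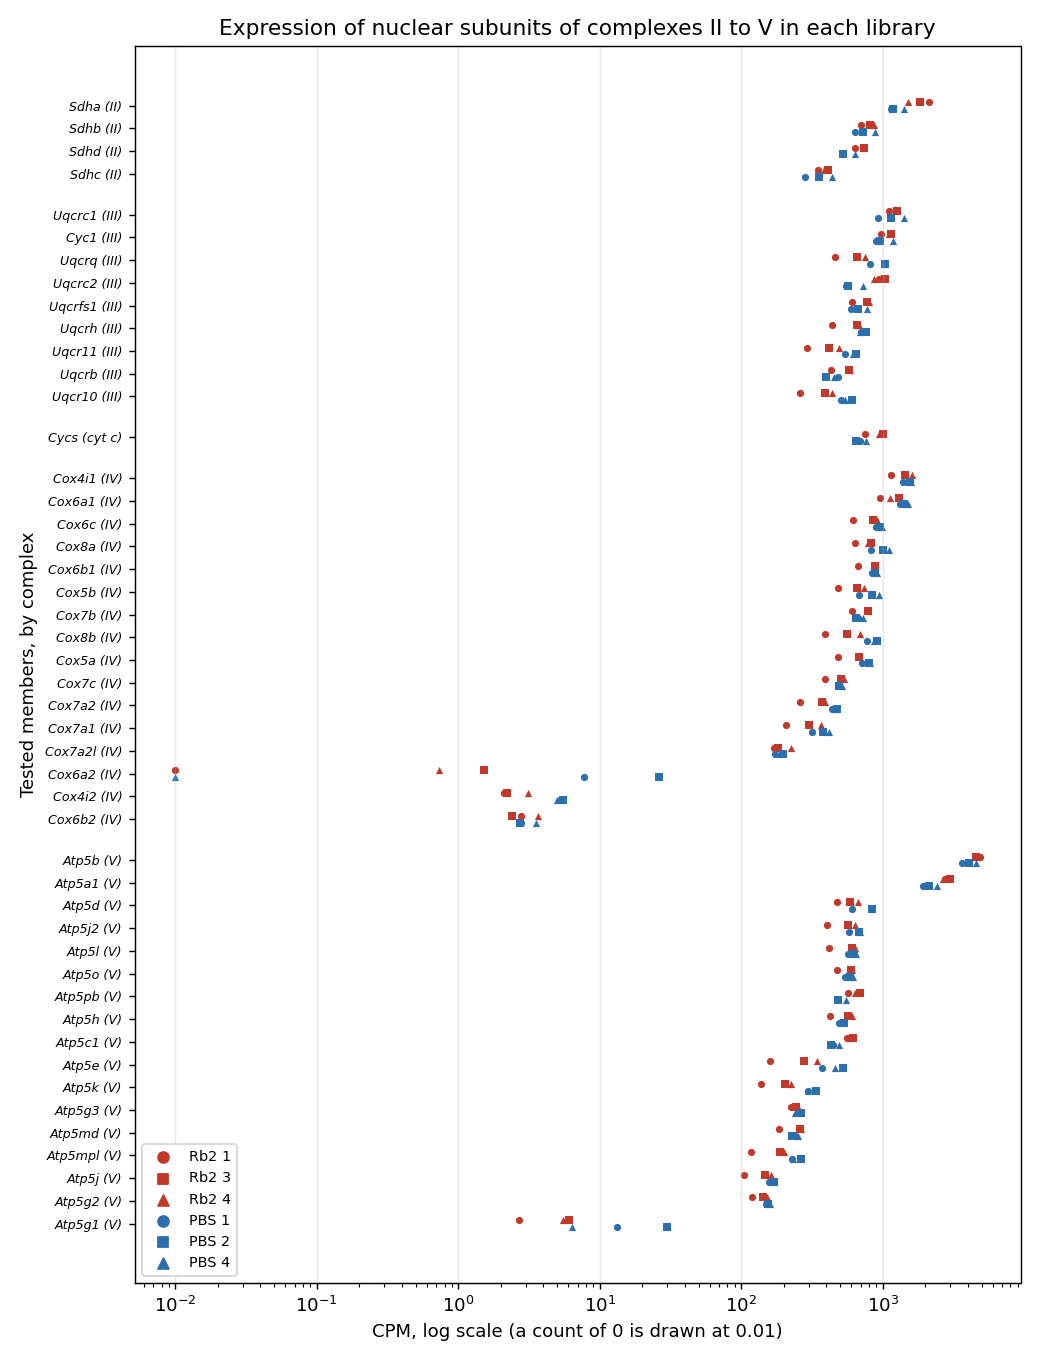
CPM on a log scale for the 47 tested members, grouped by complex and ordered by mean level within it, with 1 marker per library (red Rb2, blue PBS; circles, squares and triangles give the column numbers). Most genes lie above 100 CPM, and Cox6a2, Cox4i2, Cox6b2 and Atp5g1 lie far lower. The red circle of Rb2 1 is the lowest point for 32 of the 47 genes (for Cox6a2 tied at 0 with PBS 4).

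Complex II has 4 subunits, all from nuclear genes, and all 4 had a log2 fold change above 0 (median 0.21, beside -0.01 for all tested genes; 0.13 without PBS 1 and 0.32 without PBS 4). None passed the edgeR test (1 at an unadjusted p under 0.05; 1 by DESeq2 and 0 by limma). Sdha, the flavoprotein that oxidises succinate and the most abundant of the 4 in CPM, lay at 2131, 1850 and 1510 CPM in Rb2 libraries, against 1144, 1186 and 1424 CPM in PBS libraries. All Rb2 libraries were above all PBS libraries, with the narrowest gap between Rb2 4 and PBS 4. This is a log2 fold change of 0.55 ± 0.18 (SE, n = 3 each) with an edgeR adjusted p of 0.0760. Without Rb2 4 it passed (0.67, adjusted p = 0.0331), and in DESeq2 (0.00882), and in none of the other 19 alternatives. The adjusted p was 0.201 without PBS 1, 0.247 without PBS 2 and 0.188 with the muscle markers as a covariate, and with both PBS 1 and PBS 2 left out the log2 fold change was 0.36 (0.656).

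The other complex II subunits differed less. The membrane anchor Sdhd lay at 636, 740 and 726 CPM in Rb2 libraries, against 516, 528 and 638 CPM in PBS libraries. Rb2 1 and PBS 4 met at the edge of the 2 groups. Sdhd had a log2 fold change of 0.32 ± 0.15 (edgeR adjusted p = 0.189). Sdhc, the second anchor, lay at 351, 410 and 385 CPM in Rb2 libraries, against 285, 358 and 438 CPM in PBS libraries, and both the highest and the lowest value belonged to PBS. Its log2 fold change of 0.09 ± 0.18 turned to -0.01 when libraries were scaled by their size alone. Sdhb, which carries the iron-sulfur clusters, had a log2 fold change of 0.09. Complex II as a whole took 0.360, 0.359 and 0.361% of counts in Rb2 libraries, against 0.250, 0.298 and 0.357% in PBS libraries. On that scale the Rb2 libraries were nearly equal and PBS 4 was close to them. The mitochondrial genome took 41.7, 39.7 and 40.5% of counts in Rb2 libraries, against 42.4, 36.2 and 35.8% in PBS libraries. Of nuclear counts alone, complex II took 0.618, 0.595 and 0.606% in Rb2 libraries, against 0.434, 0.468 and 0.555% in PBS libraries.

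In complex III 1 of 2 core proteins rose and no small subunit passed the test. Uqcrc2, a core protein of the matrix side (chr7:120635189-120659523, GRCm38), lay at 945, 1045 and 868 CPM in Rb2 libraries, against 552, 572 and 727 CPM in PBS libraries. Every Rb2 library was above every PBS library, and PBS 4 was again the PBS library nearest to Rb2. It rose with a log2 fold change of 0.63 ± 0.16 (edgeR adjusted p = 0.0416), and passed in 9 of 21 alternatives. Upper-quartile scaling and an offset for GC content alone were among the alternatives in which it did not pass. The call was lost without Rb2 1, Rb2 3, PBS 1 or PBS 2 (adjusted p = 0.0919, 0.127, 0.135 and 0.171) and with scaling by library size alone (0.0924), the muscle markers as a covariate (0.0899) or an offset for GC content and length (0.0896), all with a log2 fold change of 0.52 or more. With both muscle-rich libraries PBS 1 and PBS 2 left out it was 0.39 (adjusted p = 0.585).

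Uqcrc1, the partner core protein and the most abundant complex III gene in CPM, lay at 1111, 1268 and 1247 CPM in Rb2 libraries, against 931, 1146 and 1427 CPM in PBS libraries. The Rb2 values lay inside the PBS range. The log2 fold change of Uqcrc1 was 0.05 ± 0.18 and turned to -0.04 with scaling by library size alone. The redox subunits Cyc1 (cytochrome c1) and Uqcrfs1 (the Rieske iron-sulfur protein) had log2 fold changes of 0.09 and 0.10.

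Of the 5 small subunits of complex III, 4 had a log2 fold change below 0 with groups that did not overlap (80%, beside 17.6% of all genes lower without overlap), and none passed the edgeR test (3 at an unadjusted p under 0.05; 3 lower by DESeq2 and 0 by limma). Uqcrq, an inner membrane subunit close to cytochrome b, lay at 459, 655 and 749 CPM in Rb2 libraries, against 819, 1035 and 1039 CPM in PBS libraries. All Rb2 libraries were lower, Rb2 1 by the most. Uqcrq had a log2 fold change of -0.64 ± 0.20 (edgeR adjusted p = 0.0725). Uqcr10 and Uqcr11, both short membrane proteins of the complex, had log2 fold changes of -0.61 and -0.60 (adjusted p = 0.0796 and 0.0791), and Uqcrh, the acidic hinge protein, had -0.29. Uqcrb, a matrix-facing subunit, was the exception at 0.26, and the median of the 5 was -0.60. Over all 9 genes of complex III the median was 0.05, which ran from -0.09 without PBS 1 to 0.18 without PBS 4.

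Cytochrome c itself (Cycs, the soluble carrier between complexes III and IV) lay at 752, 1007 and 941 CPM in Rb2 libraries, against 687, 650 and 759 CPM in PBS libraries. Rb2 3 and Rb2 4 were above all PBS libraries and Rb2 1 was just below PBS 4. For Cycs this gave a log2 fold change of 0.37 ± 0.16 (edgeR adjusted p = 0.162).

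Complex IV had a median log2 fold change of -0.33, with 14 of 16 tested genes below 0, 5 of them with groups that did not overlap (31.2%, beside 17.6% of all genes) and none the other way (beside 18.2%). Leaving out 1 library gave medians from -0.40 to -0.17, the value nearest to 0 being that without Rb2 1. Its genes took 0.661, 0.882 and 1.002% of counts in Rb2 libraries, against 0.925, 1.13 and 1.17% in PBS libraries, where Rb2 4 exceeded PBS 1. The median depends on sequence content: with an offset per library for GC content and transcript length it was 0.09. The 10 genes that have no tissue isoform or are the ubiquitous form of a pair gave 0 calls in edgeR (1 at an unadjusted p under 0.05; 0 by DESeq2 and by limma), and 9 of them lay below 0.

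The most abundant complex IV gene in CPM was Cox4i1, the ubiquitous form of subunit IV, at 1138, 1436 and 1603 CPM in Rb2 libraries and 1389, 1567 and 1578 CPM in PBS libraries. The groups overlapped, with Rb2 1 lowest and Rb2 4 highest of the 6. The log2 fold change was -0.12 ± 0.17, and the offset turned it to 0.36. The highest log2 fold change in the complex was 0.09 ± 0.16 for Cox7b, a small membrane subunit, at 605, 786 and 790 CPM in Rb2 libraries and 669, 649 and 729 CPM in PBS libraries; Rb2 1 was the lowest library and the other Rb2 libraries were the highest. Cox7a2l, which helps to join complexes III and IV into supercomplexes, had 0.05.

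Cox4i2 (chr2:152753916-152765039, GRCm38) is the isoform of subunit IV known in mice from lung and from pericytes, the mural cells of small vessels. It lay at 2.11, 2.22 and 3.11 CPM in Rb2 libraries, against 5.27, 5.53 and 5.01 CPM in PBS libraries. The groups were well apart and the PBS libraries were nearly equal. It fell with a log2 fold change of -1.09 ± 0.21 (edgeR adjusted p = 0.0151), the lowest p among the members. The call was lost without Rb2 1, Rb2 3, PBS 1 or PBS 2 (adjusted p from 0.0572 to 0.0642) and under the GC and length offset (-0.63, with 0.0533 as its adjusted p), and it held with the muscle markers as a covariate (-1.01, adjusted p = 0.0309). It passed in 13 of 21 alternatives, with the highest adjusted p of 0.324 when PBS 1 and PBS 2 were both left out (-1.01).

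Measurements beside Cox4i2 may bear on its value. Its annotated span overlaps that of Bcl2l1 by 6308 bases, and Bcl2l1 had a mean count of 3816 against 350 for Cox4i2 and fell by 1.19 on the log2 scale (edgeR adjusted p = 0.00592). The overlap is of whole gene spans, introns included, and overlap of exons was not computed. Whether the counting used strand is not given, and whether the 2 genes shared reads was not tested. The summed level of the mural cell markers was also lower in all Rb2 libraries than in all PBS libraries. Of the 10 markers 6 were lower without overlap (60%, beside 17.6% of all genes). The groups overlapped for Pdgfrb, Cspg4, Rgs5 and Acta2, with log2 fold changes of -0.06, 0.07, -0.13 and -0.69. This marker list was added after results were seen, and the part of mural cells in the fall of Cox4i2 was not tested. Within a library the log2 ratio of Cox4i2 to Cox4i1 counts was -9.07, -9.33 and -9.01 in Rb2 libraries, against -8.04, -8.14 and -8.30 in PBS libraries. The ratios did not overlap, and their means differed by -0.98 (exact two-sided permutation p = 0.1, the smallest that 3 against 3 libraries can give; 0.4 adjusted over the 4 pairs tested).

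Cox7a1 and Cox8b are the forms of subunits VIIa and VIII of heart, skeletal muscle and, in rodents, brown fat. Cox8b lay at 389, 558 and 693 CPM in Rb2 libraries, against 779, 918 and 874 CPM in PBS libraries. No Rb2 library reached the lowest PBS library, and Rb2 1 was lowest of all. The log2 fold change was -0.65 ± 0.21 (edgeR adjusted p = 0.0751), which reached 0.0273 when Rb2 4 was left out and 0.0105 in DESeq2. Over the other 19 alternatives it did not pass, up to an adjusted p of 0.737 with the GC and length offset. The log2 fold change was then -0.08, and without Rb2 1 it was -0.45. Its ubiquitous partner Cox8a lay at 638, 828 and 794 CPM in Rb2 libraries, against 825, 999 and 1102 CPM in PBS libraries, where Rb2 3 and PBS 1 met. Its log2 fold change was -0.37 ± 0.17 (adjusted p = 0.178).

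Per length, Cox8b stood at 93.1, 103 and 133% of Cox8a in Rb2 libraries, against 144, 140 and 121% in PBS libraries. Rb2 4 was above PBS 4, so the ratios overlapped. The log2 count ratio averaged -0.49 ± 0.27 in Rb2 and -0.18 ± 0.14 in PBS (SD, n = 3 each), a difference of -0.31 (exact permutation p = 0.2, adjusted 0.4).

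Cox7a1 lay at 207, 301 and 367 CPM in Rb2 libraries, against 318, 378 and 420 CPM in PBS libraries, and its ubiquitous partner Cox7a2 at 262, 375 and 393 CPM, against 437, 478 and 461 CPM. Both were lowest in Rb2 1, and only for Cox7a2 did the groups not overlap. Their log2 fold changes were -0.35 ± 0.21 and -0.42 ± 0.17 (edgeR adjusted p = 0.296 and 0.145), or -0.15 and -0.25 without Rb2 1, and that of Cox7a1 turned to 0.16 with the GC and length offset. The 2 genes moved together within libraries. Cox7a1 stood per length at 132, 134 and 157% of Cox7a2 in Rb2 libraries, against 122, 133 and 153% in PBS libraries, and the log2 ratios differed by 0.06 (exact permutation p = 0.6, adjusted 0.8). Both brown fat isoforms were as abundant per length as the ubiquitous form or more so in all libraries except Rb2 1, where Cox8b stood below Cox8a.

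Cox6a2 is the form of subunit VIa of heart and skeletal muscle. It lay at 0, 1.53 and 0.735 CPM in Rb2 libraries, against 7.71, 26.1 and 0 CPM in PBS libraries. PBS 1 and PBS 2 held nearly all of its reads, and the 6 libraries stand in the same order for Cox6a2 as for the summed skeletal muscle markers, apart from a tie at 0 between Rb2 1 and PBS 4. A count of 0 allows up to 0.0354 CPM in Rb2 1 and 0.0307 CPM in PBS 4 (3 counts, counting error only). Its fitted log2 fold change of -3.90 (edgeR adjusted p = 0.361) turned to 0.64 with the muscle markers as a covariate. The ubiquitous partner Cox6a1 lay at 962, 1300 and 1124 CPM in Rb2 libraries, against 1317, 1427 and 1506 CPM in PBS libraries, with groups that did not overlap by a small margin. The log2 fold change of Cox6a1 was -0.33 ± 0.16 (adjusted p = 0.205), or 0.26 with the GC and length offset.

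Cox6b2, the testis form of subunit VIb, was at 2.80, 2.40 and 3.69 CPM in Rb2 libraries and 2.76, 2.72 and 3.53 CPM in PBS libraries, fully overlapping. Its partner Cox6b1 was at 666, 888 and 866 CPM in Rb2 libraries and 835, 877 and 913 CPM in PBS libraries, where Rb2 1 stood apart below the others. Their log2 fold changes were -0.02 and -0.12, which both turn positive with the GC and length offset (0.45 and 0.18), and their log2 ratio differed by 0.10 (exact permutation p = 0.8, adjusted 0.8).

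**Figure D3:**
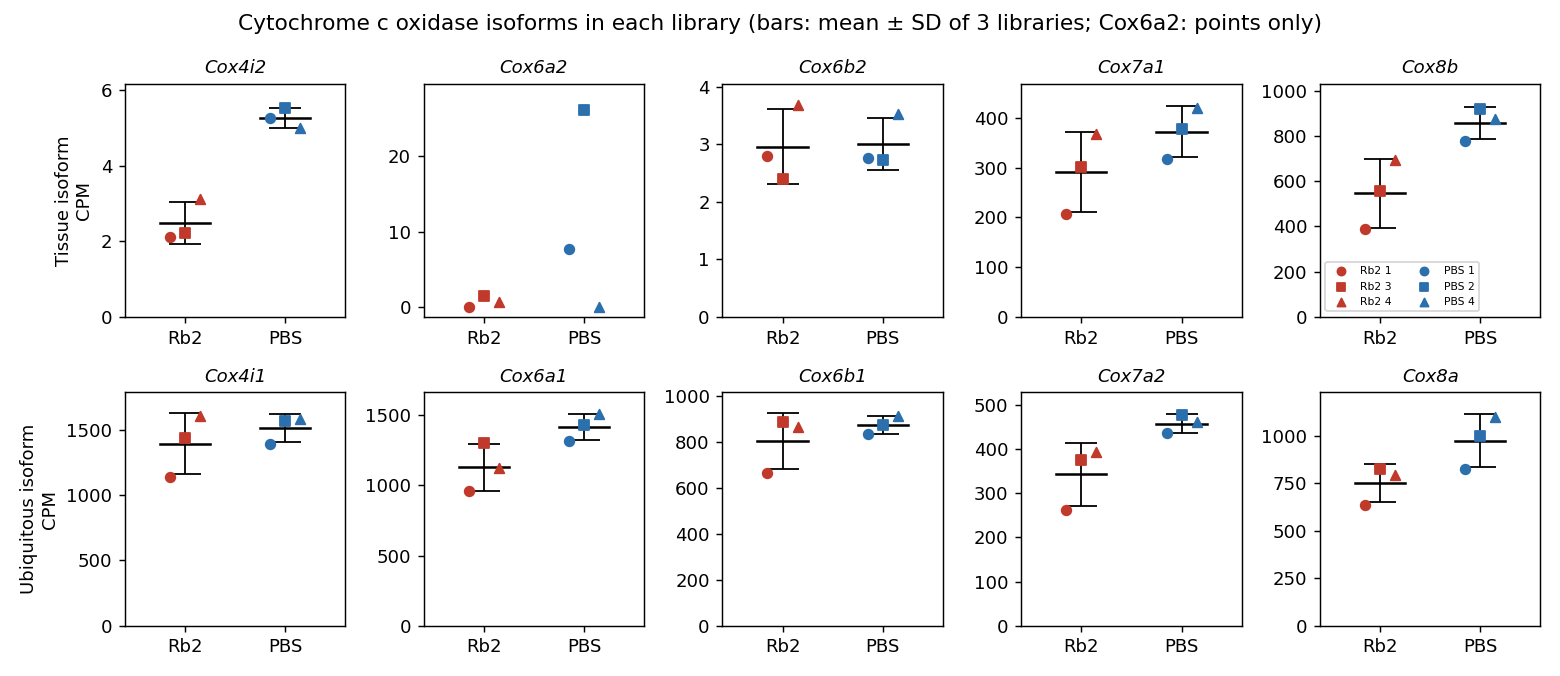
CPM of 5 tissue isoforms of cytochrome c oxidase (top) and their ubiquitous partners (bottom) in each library, on axes that start at 0 (the axis of Cox6a2 starts just below it), with the mean and SD of each group as black bars except for Cox6a2. Of the tissue isoforms the groups are apart for Cox4i2 and Cox8b, while for Cox6a2 the reads come from PBS 1 and PBS 2.

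Promoter windows (250 bases before to 50 after the start) from RefSeq, build GRCm38.p6, were at hand for 37 of the 49 members in 40 windows. They were searched on both strands for GCATGCG (core of the NRF1 site, nearly the same on both strands), CCGGAAG (the ETS site bound by GABP), AAGGTCA (the site of estrogen-related receptors) and AAGATGG (core of the YY1 site), factors known to act on genes of respiration. These letters were in 22.5, 32.5, 12.5 and 10% of the member windows, beside 4.44, 11.5, 4.08 and 6.22% of the 21296 windows of all protein-coding genes, and at least 1 of them in 50 and 23.6%. The tissue isoforms with a window held none of the 4 (0 of 4 genes), and 20 of 33 other members held at least 1. The windows of both brown fat isoforms are shown beside that of Cox8a to let the contrast be read. The window of Cox7a1 lies at chr7:30183921-30184220 (plus strand), Cox8b at chr7:140900397-140900696 (minus strand) and Cox8a at chr19:7217567-7217866 (minus strand); sequences run 5′ to 3′ and capitals mark a match. A match is only a run of letters, and its absence says nothing about a factor. Cox8a has the ETS letters at 2 places on its reverse strand, the others have no match.
Cox7a1: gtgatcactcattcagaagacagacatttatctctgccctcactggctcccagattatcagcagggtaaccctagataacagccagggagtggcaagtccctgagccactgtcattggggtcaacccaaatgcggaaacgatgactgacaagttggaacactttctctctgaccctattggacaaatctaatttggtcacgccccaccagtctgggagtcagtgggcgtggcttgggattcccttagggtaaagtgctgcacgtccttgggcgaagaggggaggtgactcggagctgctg
Cox8b: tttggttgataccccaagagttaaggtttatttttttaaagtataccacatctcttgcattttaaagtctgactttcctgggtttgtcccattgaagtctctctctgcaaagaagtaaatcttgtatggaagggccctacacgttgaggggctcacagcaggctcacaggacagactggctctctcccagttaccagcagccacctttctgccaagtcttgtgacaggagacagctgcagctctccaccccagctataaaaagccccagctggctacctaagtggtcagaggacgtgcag
Cox8a: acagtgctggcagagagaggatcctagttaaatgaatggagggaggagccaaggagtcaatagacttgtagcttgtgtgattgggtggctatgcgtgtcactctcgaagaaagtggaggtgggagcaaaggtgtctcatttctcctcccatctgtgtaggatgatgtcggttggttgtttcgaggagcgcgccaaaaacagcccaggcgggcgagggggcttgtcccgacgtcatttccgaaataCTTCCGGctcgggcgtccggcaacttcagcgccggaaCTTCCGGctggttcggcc

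Complex V had a median log2 fold change of -0.15, with 5 genes above 0 and 12 below (median -0.03 without Rb2 1 and -0.25 without Rb2 4), and its genes took 1.14, 1.25 and 1.38% of counts in Rb2 libraries, against 1.07, 1.31 and 1.39% in PBS libraries, which overlapped fully. The alpha and beta subunits form the F1 head, where ATP is made. Atp5a1 (alpha) lay at 2774, 2983 and 2678 CPM in Rb2 libraries, against 1937, 2112 and 2411 CPM in PBS libraries. Atp5b (beta), the most abundant member in CPM, lay at 4899, 4596 and 4674 CPM in Rb2 libraries, against 3636, 4059 and 4562 CPM in PBS libraries. Both were higher in all Rb2 libraries, Atp5b by a small margin over PBS 4. Their log2 fold changes were 0.38 ± 0.15 and 0.21 ± 0.16, and neither passed the test (edgeR adjusted p = 0.132 and 0.394).

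The stalk subunits were split. Atp5c1 (gamma, the rotor axle) and Atp5pb (subunit b of the stator) were higher in all Rb2 libraries, with log2 fold changes of 0.36 and 0.32. Atp5d (delta of the rotor) had -0.40 with overlapping groups. Atp5e, the epsilon subunit and with 52 residues the shortest member, lay at 161, 278 and 343 CPM in Rb2 libraries, against 370, 524 and 457 CPM in PBS libraries. All Rb2 libraries were lower, Rb2 4 only just. Its log2 fold change was -0.79 ± 0.27 (edgeR adjusted p = 0.0924).

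Atp5g1, Atp5g2 and Atp5g3 encode the same mature c subunit, which forms the rotating membrane ring, and differ in the leader peptide that targets it to mitochondria. Atp5g3 was at 225, 242 and 251 CPM in Rb2 libraries and 250, 266 and 239 CPM in PBS libraries, and Atp5g2 at 119, 142 and 153 CPM and 150, 155 and 159 CPM. Both overlapped between groups, with log2 fold changes of -0.07 and -0.17 that turn to 0.19 and 0.28 with the GC and length offset. Atp5g1, the form that is known to be regulated between tissues, was scarce: 2.67, 6.02 and 5.53 CPM in Rb2 libraries, against 13.2, 29.9 and 6.35 CPM in PBS libraries. It was high in the muscle-rich libraries PBS 1 and PBS 2, while PBS 4 was only just above the Rb2 libraries. It supplied 0.770, 1.54 and 1.35% of the c subunit counts in Rb2 libraries, against 3.19, 6.62 and 1.57% in PBS libraries. Atp5g1 had a log2 fold change of -1.80 ± 0.69 (edgeR adjusted p = 0.170), -1.03 with the muscle markers as a covariate (adjusted p = 0.0485), -1.80 in DESeq2 (0.0434), -1.05 without PBS 2 (0.266) and -0.42 without PBS 1 and PBS 2 (adjusted p = 0.720).

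The 5 supernumerary subunits of the membrane part all lay below 0 (median -0.27). Atp5k (subunit e, which helps ATP synthase to pair into dimers; chr5:108433246-108434399, GRCm38) lay at 138, 203 and 224 CPM in Rb2 libraries, against 295, 338 and 297 CPM in PBS libraries. The groups were clearly apart, and Rb2 1 was the lowest. It fell with a log2 fold change of -0.72 ± 0.19 (edgeR adjusted p = 0.0427). The call was lost when any library other than Rb2 4 was left out (adjusted p from 0.0655 to 0.150), with the muscle markers as a covariate (-0.60, 0.0695), with scaling by library size alone (-0.80, 0.0546) and with the GC and length offset (-0.21, 0.289). It passed in 8 of 21 alternatives, with the highest adjusted p of 0.449 without both PBS 1 and PBS 2 (-0.66). Atp5mpl had -0.52 with groups that did not overlap, and Atp5md, which also takes part in dimer formation, had -0.02.

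The promoter window of Atp5k, the member of complex V that passed the test, holds 3 of the 4 motifs and lies at chr5:108434350-108434649 on the minus strand. Capitals mark the NRF1 core, read on both strands at the same place 48 bases before the start, the ETS letters on the reverse strand and the AAGGTCA letters, both after the start.
Atp5k: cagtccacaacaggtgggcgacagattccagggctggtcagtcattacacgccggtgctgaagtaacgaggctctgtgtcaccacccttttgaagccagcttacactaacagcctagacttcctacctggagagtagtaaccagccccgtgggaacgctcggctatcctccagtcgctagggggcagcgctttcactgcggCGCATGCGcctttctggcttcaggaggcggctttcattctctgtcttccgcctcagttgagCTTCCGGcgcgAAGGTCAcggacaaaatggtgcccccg

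Over the members as a whole the log2 fold change was higher for larger subunits. Of the 19 tested members with up to 100 residues 18 had a log2 fold change below 0 and 9 were lower in all Rb2 libraries (47.4%, beside 17.6% of all genes), with a median of -0.37. Of the 17 with more than 100 and up to 200 residues 11 lay below 0 (median -0.15). Of the 11 with more than 200 residues 10 lay above 0 and 6 were higher in all Rb2 libraries (54.5%, beside 18.2% of all genes; median 0.21). Spearman's rho of log2 fold change and coding length was 0.62 across the 47 members, which share libraries and are not independent. It was 0.70 across the 9 genes of complex III and 0.73 across the 17 of complex V, but -0.10 across the 16 of complex IV, of which none is longer than 172 residues. The size classes were set after the pattern was seen.

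The trend was not limited to these complexes. Across 36 nuclear subunits of complex I rho was 0.70, and across 13720 genes with a known coding length 0.11. Among other genes, complex I left out, the median was -0.28 for 242 genes with up to 300 coding bases, -0.15 for 1470 genes up to 600, -0.03 for 3961 up to 1200 and 0.05 for 5030 up to 2400, beside -0.37, -0.15, 0.10 and 0.38 for the members. Members with up to 300 coding bases lay at a median of -0.80, -0.29 and -0.22 (log2 CPM less the PBS mean) in Rb2 1, 3 and 4, against -0.09, 0.07 and 0.06 in PBS 1, 2 and 4. Rb2 1 was the lowest library for 18 of these 19 genes (for Cox6a2 tied at 0 with PBS 4), and PBS 1 for 9 of the 11 members over 200 residues. Other genes of that length lay at -0.45, -0.22 and -0.08 in Rb2 libraries, against 0.01, 0.01 and -0.02 in PBS libraries.

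Without Rb2 1 the small members had a median of -0.25 with 14 of 19 below 0, and rho over all members was 0.58; leaving out any 1 library gave a rho from 0.57 to 0.63. With the offset for GC content and transcript length the medians of the 3 size classes were -0.0026, 0.14 and 0.37, and rho with coding length was 0.58. The order of the class medians stayed, with 10 of the 19 small members below 0. Against transcript length, which the offset models, rho fell from 0.56 to 0.33 over members and from 0.75 to 0.28 over complex I subunits. With the length offset alone rho with coding length was 0.47 over members, and with the GC offset alone it was 0.72. Over complex I subunits rho with coding length was 0.58 with the offset for both, 0.53 with the length offset and 0.76 with the GC offset. The log2 fold change also ran against GC content (rho -0.39 over members and -0.35 over 14027 genes). Coding length and GC content had a rho of 0.03 with each other over members.

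**Figure D4:**
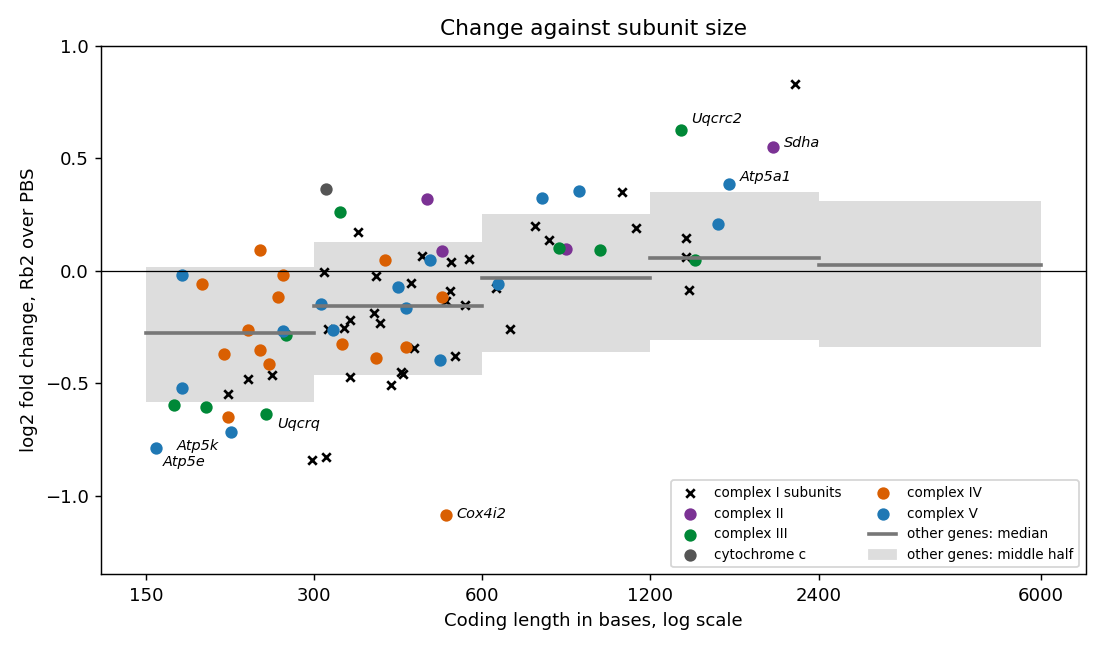
Log2 fold change (Rb2 over PBS) against coding length in bases on a log scale for the members, coloured by complex, and for complex I subunits (crosses); grey bars give the median and the interquartile range of other tested genes in each length class. Short members such as Atp5e and Uqcrq lie below 0 and long ones such as Sdha and Uqcrc2 above it; Cox6a2 and Atp5g1 are off the scale and are not drawn.

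**Figure D5:**
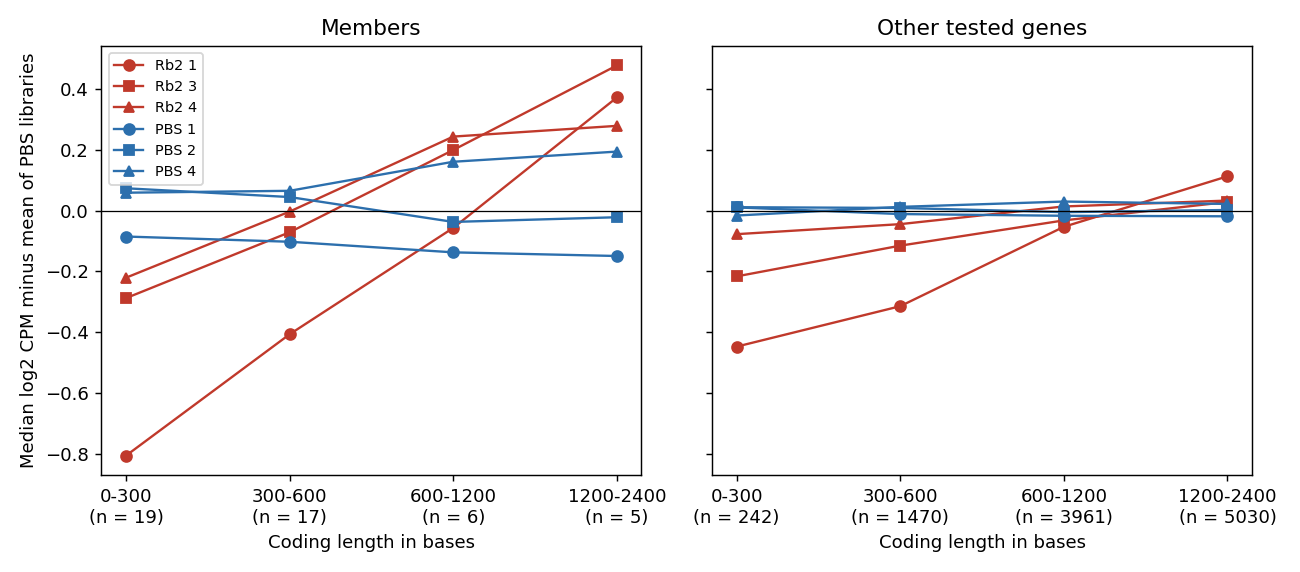
Median log2 CPM less the mean of the PBS libraries in 4 classes of coding length, for members (left) and other tested genes (right), with 1 line per library. The Rb2 lines climb with length from -0.80, -0.29 and -0.22 in the shortest members, steepest in Rb2 1, and the climb is shallower in other genes.

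Other genes of the same machinery were counted in the same fit. Assembly factors of complex II gave 0 calls among 4 in edgeR (1 at an unadjusted p under 0.05, 1 by DESeq2, 0 by limma). Those of complex III gave 0 among 6 tested (4 at an unadjusted p, 3 by DESeq2, 0 by limma). Those of complex V gave 0 among 5 (2 at an unadjusted p, 1 by DESeq2, 0 by limma). The shares at an unadjusted p under 0.05 were 25, 66.7 and 40% for II, III and V, beside 30.0% of all genes. By DESeq2 they were 25, 50 and 20%, beside 19.8% of all genes. The edgeR share was 0 for each, beside 10.4% of all genes. The median log2 fold changes of the assembly factors of II, III and V were 0.28, 0.31 and 0.30. Those with the lowest p were Sdhaf2, which attaches flavin to Sdha (0.40, edgeR adjusted p = 0.0577), Ttc19 of complex III (0.38, 0.0671) and Atpaf1, a chaperone of the F1 head (0.49, 0.0778).

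In the list of complex IV assembly factors 24 genes were tested. Of these 2 rose and 1 fell in edgeR (12.5% called, beside 10.4% of all genes), with a median of 0.12. DESeq2 called 25% of them and limma 8.33%, with 1 higher and 1 lower in limma, beside 19.8 and 9.74% of all genes. 1 of the 2 that rose, Hccs, attaches heme to cytochromes c and c1, so its call is not one for complex IV alone. Hccs lay at 40.0, 41.3 and 33.2 CPM in Rb2 libraries, against 20.7, 17.6 and 21.4 CPM in PBS libraries. It rose with a log2 fold change of 0.94 (edgeR adjusted p = 0.00699), with the groups far apart. Cox15, which makes heme a, rose by 0.60 (0.0498). Cox19, a protein of copper delivery, fell by 0.74 on the log2 scale (0.0327), and lay at 29.5, 48.2 and 33.7 CPM in Rb2 libraries, against 59.6, 60.2 and 66.1 CPM in PBS libraries.

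Of the genes tied to complexes IV and V by function but not by name, Ndufa4, an accessory subunit of complex IV, had a log2 fold change of -0.21 and the ATPase inhibitor Atpif1 -0.42 (edgeR adjusted p = 0.440 and 0.125). Neither passed (0 of 2 tested, 1 at an unadjusted p under 0.05; 0 by DESeq2 and by limma). Among 38 nuclear subunits of complex I, 1 rose and 2 fell in edgeR (7.89%, beside 10.4% of all genes), with a median of -0.11. DESeq2 called 1 higher and 5 lower (15.8%, beside 19.8% of all genes), and limma 1 higher and 1 lower (5.26%, beside 9.74%). Ndufs1, the largest subunit, rose by 0.83 (edgeR adjusted p = 0.0282). The small subunits Ndufa2 and Ndufb2 fell by 0.84 and 0.83 on the log2 scale (edgeR adjusted p = 0.0425 and 0.0484). The 13 protein genes of the mitochondrial genome, which encode further subunits of complexes I, III, IV and V, gave 0 calls in edgeR, with a median of 0.18. At an unadjusted p under 0.05 there was 1 (7.69%, beside 30.0% of all genes). DESeq2 called 1 higher (7.69%, beside 19.8%) and limma 0 (beside 9.74%). The lowest adjusted p among them was 0.0928 for ATP8 (0.62).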

How the data were processed

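RNA-seq of brown adipose tissue from 3 Rb2 and 3 PBS libraries was analysed. The values are raw read counts per gene in 1 table that the authors deposited. They are whole numbers and not normalized. Per the labels' protocols, the libraries came from a strand-marking mRNA kit. The submitters' processing notes name HISAT2, Bowtie2, StringTie, Trimmomatic and the mm10 genome. Their roles and versions, how reads were counted and whether by strand: not given in the sources used here. Columns name the group, with numbers that differ from those of the titles.

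The counts were fitted in edgeR 4.0.16 (R 4.3.3) by quasi-likelihood, with TMM scaling, robust dispersions and the default expression filter (count minimum of 10, total of 15). This left 16707 genes, over which p-values were adjusted by Benjamini and Hochberg, with a threshold of 0.05. SE is the log2 fold change over the square root of F. The test was checked on simulated counts. Isoform ratios (0.5 added to each count) were compared by exact two-sided permutation over 20 arrangements (scipy 1.17.1). Coding length, transcript length and GC content came from GENCODE transcripts of GRCm38 matched by gene ID. Of the tested genes 84.0% had GC content and transcript length, and 13720 had a coding length. Positions came from RefSeq.

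Named members are those past the threshold, both genes of each isoform pair, the c subunit genes and, in each complex, the most abundant gene, those with the highest and lowest log2 fold change and up to 2 with the lowest p. From the other lists up to 3 genes with the lowest p could be named. Other genes named with a value were chosen after their values were seen. The members and lists were chosen with earlier results of these data known. The mural cell list, the offsets for length or GC alone and the fit of 4 libraries with no block were added after results were seen.

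Libraries correlated across genes at a Pearson r from 0.920 to 0.979, so none was deposited a second time. The table also holds 7 pseudogenes with member-like symbols, with 1436 to 3154 counts in all per library; reads shared with such copies could be split.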

Additional observations from a re-analysis of the deposited data

How the results depend on the processing

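The number of members called (3) and of genes called (1743) was recomputed under 21 other fits, which include DESeq2 1.42.0 and limma 3.58.1. Members called were 13 (of 3309 genes) with the DESeq2 Wald test, 9 at an adjusted p under 0.1, 1 with scaling by library size alone, 1 with an offset for GC content, 0 with an offset for both GC content and length, and 0 (of 0 genes) without PBS 1 and PBS 2, where the lone PBS library is assumed to vary like the others. The muscle covariate left 909 genes called. Leaving out 1 library gave 0 to 9 members and 303 to 2269 genes. No paired analysis was possible because the columns carry other numbers than the titles; a block on the column numbers 1 and 4, carried by both groups, left 0 members (52 genes), beside 0 members (296 genes) for the same 4 libraries with no block.

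Complex medians moved by more than the spread between replicates as follows. With the GC and length offset they were 0.40 for II, 0.13 for cytochrome c, 0.095 for IV and 0.19 for V, with the length offset 0.42 for II, 0.051 for IV and 0.21 for V, and without PBS 1 and PBS 2 -0.00023 for II and -0.23 for III. The sign turned for 16 of the 47 tested members with the GC and length offset, 15 with the length offset, 7 with the GC offset and 8 without PBS 1 and PBS 2, and 30 moved by over 1.5 times when some library was left out. Among named members the signs that turned belonged to genes that had not passed, and the cause was not tested. With the GC and length offset these were Atp5g2 (0.28), Atp5g3 (0.19), Cox4i1 (0.36), Cox6a1 (0.26), Cox6b1 (0.18), Cox6b2 (0.45), Cox7a1 (0.16) and Cox8a (0.21). With the length offset they were Atp5g2 (0.15), Atp5g3 (0.26), Cox4i1 (0.18), Cox6a1 (0.045), Cox6b1 (0.23), Cox6b2 (0.34), Cox7a1 (0.057) and Cox8a (0.0028). With the GC offset they were Atp5g2 (0.10), Cox4i1 (0.19), Cox6a1 (0.016), Cox6b2 (0.21) and Cox7b (-0.070). Without PBS 1 and PBS 2 they were Atp5g3 (0.0026), Cox6a2 (9.08), Cox7b (-0.0026), Sdhc (-0.19) and Uqcrc1 (-0.24). Library size alone turned Sdhc (-0.0055) and Uqcrc1 (-0.041), the muscle covariate Cox6a2 (0.64), the block Cox6b2 (0.040) and Cox7b (-0.016), and the 4 libraries with no block Cox6b2 (0.043), Cox7b (-0.0040) and Uqcrc1 (-0.00079). Leaving out 1 library gave -0.23 to 0.009997 for Cox4i1, -0.19 to 0.0051 for Cox6b1, -0.21 to 0.11 for Cox6b2, -0.057 to 0.23 for Sdhc, -0.090 to 0.20 for Uqcrc1, and differences of -0.016 to 0.31 for the Cox6b2 to Cox6b1 ratio and -0.019 to 0.15 for Cox7a1 to Cox7a2. The log2 ratio difference of Cox4i2 to Cox4i1 kept its direction in all 8 alternatives (-1.04 to -0.88 without 1 library). Depth did not limit the abundant members; for Cox4i2, Cox6b2 and Atp5g1, with at most 535, 345 and 2892 counts per library, it does more.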
